A study of Mus musculus with 2 samples.

Results

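The genes described here encode ligands and receptors of axon guidance, and they were taken by name from the probes of an expression array. They are the semaphorins of classes 3 to 7, the plexins, the neuropilins *Nrp1* and *Nrp2*, the netrins, the Unc5 receptors, the Slit proteins and their Robo receptors, the ephrins and the Eph receptors. The names matched 70 of the 21285 genes that could be tied to a reference gene, and 90 of the 55679 probes that were not controls. Of the 70, 35 encode ligands and 33 encode receptors. The other 2, *Unc50* and *Unc5cl*, share the letters of the Unc5 name and are not netrin receptors.

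RNA of the incisor was measured in wild-type and *Sox21* KO mice, with 1 array for each genotype. In the labels, both samples are incisors of postnatal day 0, whereas the methods of the study speak of tooth germs of day 1 mice. The number of animals behind each RNA was not given in the sources used here. *Sox21* encodes a transcription factor that the study placed in differentiating ameloblasts, the epithelial cells that secrete enamel. By the methods, wild-type mice were C57BL/6J and the *Sox21* KO line was a gift whose strain background is not stated. No cell type was sorted.

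Axon guidance ligands are secreted or membrane-bound proteins that attract or repel growing nerve fibres through receptors on the growth cone. Semaphorins act through plexins, often with neuropilins as co-receptors, netrins act through Dcc and Unc5 receptors, Slit proteins act through Robo receptors, and ephrins act through Eph receptors on neighbouring cells. The same proteins also guide vessels, epithelia and mesenchyme, and in the developing tooth *Sema3a* is known to keep sensory fibres out of the early germ. Fewer cells of a type and less RNA per cell cannot be told apart in RNA of a whole tissue.

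The values are processed signals, from which the scanner software had taken the background. Each signal was divided by the 75th percentile of its array, 268 for wild-type and 276 for *Sox21* KO, and log2 ratios give *Sox21* KO minus wild-type. A gene was represented by its brightest probe and counted as measured where the software marked that probe as well above background on both arrays. The software also gives an error for every signal. For the log2 ratio of a measured gene of the guidance families, this scanner error had a median of 0.20 and reached 0.40 at the dimmest probe. It covers the array only. With 1 array per genotype there was no replicate and no test, and ratios are given as a description of these 2 arrays. A difference between the 2 arrays and a difference between the genotypes cannot be told apart.

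The targeted gene had lower signals on the array labelled *Sox21* KO, without reaching background. Where its probes lie relative to the deleted part was not given in the sources used here. Its signal was 1362 in wild-type and 659 in *Sox21* KO at the brighter probe, a log2 ratio of -1.09, and 286 and 103 at the other probe, a log2 ratio of -1.51. The software marked 49.7% of spots in wild-type and 50.4% in *Sox21* KO as well above background, controls not counted, and 0 spots as saturated. Repeat spots of 298 probes gave log2 ratios with an SD of 0.09 in the median.

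Most guidance genes had signal in the incisor, and most of those had a slightly higher normalized signal in *Sox21* KO. Of the 70 genes, 61 were measured on both arrays, 4 were well above background on the *Sox21* KO array alone, 0 on the wild-type array alone and 5 on neither. Of all 21285 genes, 13797 were measured on both arrays and 6758 on neither. The log2 ratio was above 0 for 45 of the 61 and below 0 for 16. That is 73.8% above 0, against 52.4% of all 13797 genes measured. Their median log2 ratio was 0.14, against 0.01 over all genes. When each array was scaled by its median in place of the 75th percentile, the median of the guidance genes moved to 0.24 with 86.9% above 0, and that of all genes to 0.11 with 69.3% above 0. This scaling adds the same amount to every log2 ratio, so the distance between both medians cannot change.

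At least 1.5-fold higher in *Sox21* KO were 6 of the 61, which is 9.84%, against 3.20% of all measured genes. At least 1.5-fold lower were 2, which is 3.28%, against 3.0% of all measured genes. None was 2-fold higher or lower, where 0.739% and 0.681% of all genes were. All 6 higher genes encode ligands, namely *Sema4f*, *Slit1*, *Sema4d*, *Sema6b*, *Sema3f* and *Ntn1*. The 2 lower genes were the ligand *Sema3e* and the receptor *Plxna4*. With normexp background correction, which shrinks the ratios of dim probes, 1 guidance gene was at least 1.5-fold higher (*Sema4d*) and 1 lower (*Plxna4*), against 1.25% and 1.54% of all genes, so both counts rested on the background correction. There *Sema4f* had a log2 ratio of 0.27, *Slit1* 0.43, *Sema6b* 0.39 and *Ntn1* 0.31, and the dim *Sema3e* had -0.39. *Sema3f*, a bright probe at the limit, had 0.54. By more than 2 scanner errors, 9 of the 61 genes were higher and 3 of the 61 lower, against 5.55% and 5.31% of all genes. Beside the 6, these were *Plxnc1*, *Ntn3* and *Sema3c*, and the third lower gene was *Sema4b*.

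**Figure D1:**
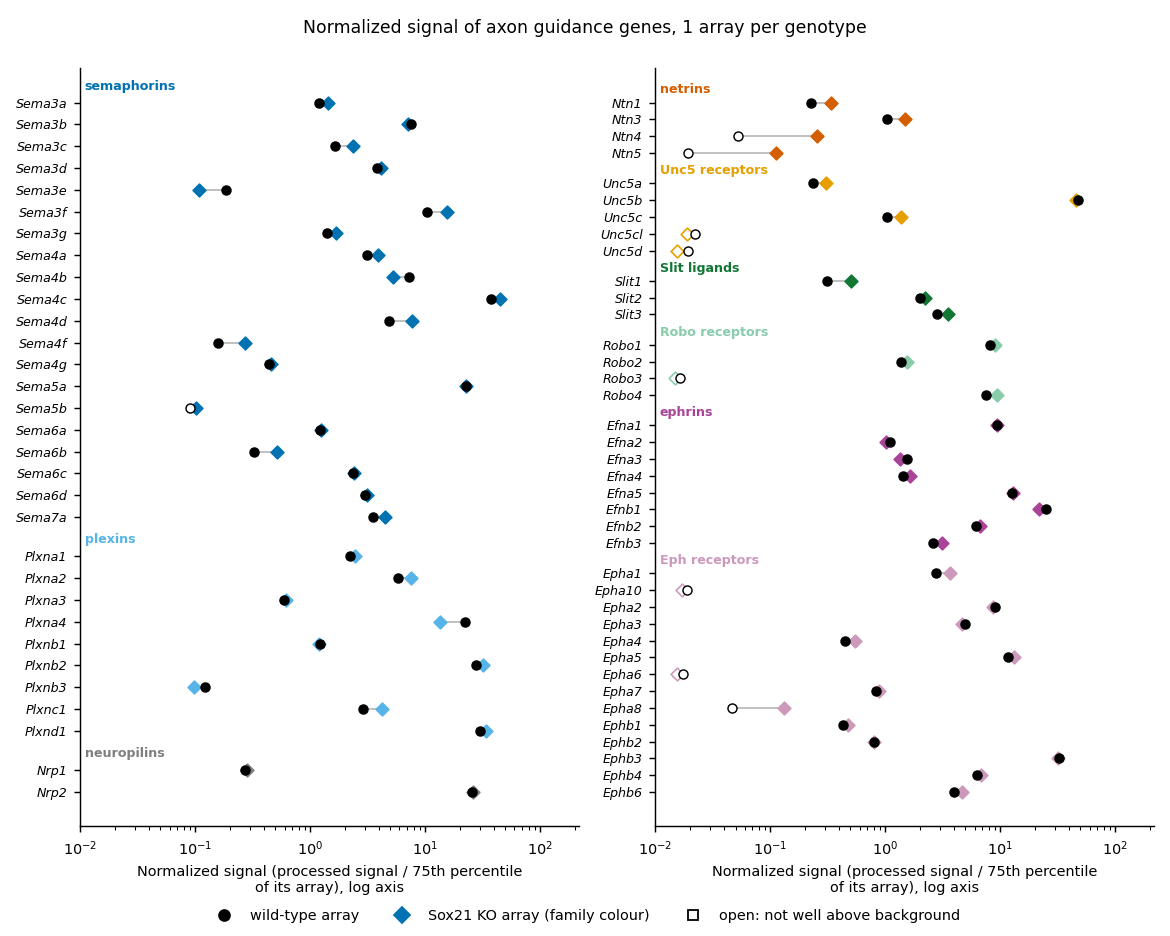
Normalized signal of the guidance genes on each array (horizontal log axis, processed signal divided by the 75th percentile of its array), by family, with the wild-type array as black circles and the *Sox21* KO array as coloured diamonds. Open symbols were not well above background. *Ntn4*, *Ntn5*, *Epha8* and *Sema5b* are open in wild-type and filled in *Sox21* KO, whereas for most genes both symbols nearly coincide.

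Among ligands, 32 of 35 were measured, 24 above 0 and 8 below, with a median log2 ratio of 0.17. Among receptors, 28 of 33 were measured, 20 above 0 and 8 below, with a median of 0.14. The ligands ranged from -0.76 to 0.79, with 6 at least 1.5-fold higher and 1 lower. The receptors ranged from -0.72 to 0.55, with 0 higher and 1 lower by that measure. Under the median scaling, 9 guidance genes were at least 1.5-fold higher, against 4.86% of all genes. *Ntn3*, *Sema3c* and the receptor *Plxnc1* were added to the 6, so the absence of receptors among the higher genes depended on the scaling.

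**Figure D2:**
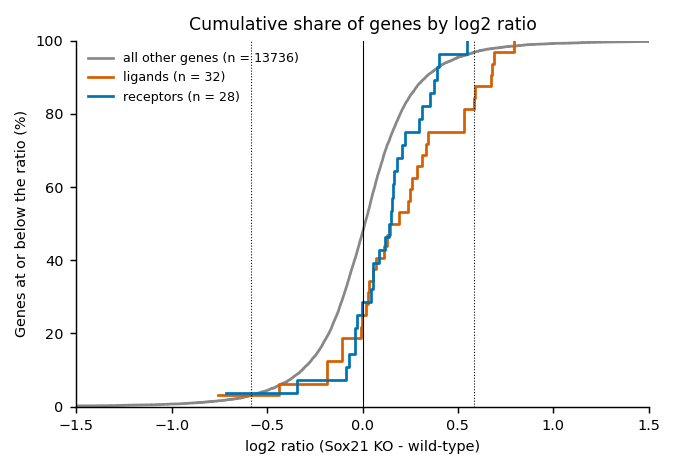
Cumulative share of genes (vertical axis, percent) at or below each log2 ratio (horizontal axis, *Sox21* KO minus wild-type), for 32 ligands, 28 receptors and 13736 other genes measured on both arrays. Dotted lines mark 1.5-fold in either direction. Both guidance curves lie to the right of the curve of other genes between 0 and 0.4, and of the guidance groups only the ligands pass the right dotted line.

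Semaphorins were the largest family, with 19 of 20 measured, 15 above 0 and 4 below, and a median log2 ratio of 0.24. Class 3 semaphorins are secreted and mostly bind neuropilins with A-type plexins. *Sema3f*, a repellent that binds *Nrp2*, had signals of 2775 ± 278 (scanner error) in wild-type and 4295 ± 430 in *Sox21* KO, 1.5-fold higher with a log2 ratio of 0.59. *Sema3c* went from 442 to 657, a log2 ratio of 0.53. Its second probe gave 0.24, so the size of that difference depended on the probe. *Sema3a* had 323 and 395, with log2 ratios of 0.25 at this probe and 0.52 at its second probe.

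The class also held the lowest ratio of the whole set. *Sema3e*, which binds *Plxnd1* without a neuropilin and repels vessels, had 49.6 ± 6.87 in wild-type and 30.1 ± 5.65 in *Sox21* KO, 1.69-fold lower with a log2 ratio of -0.76. Both signals lay near the lowest values marked as well above background, which were 21.3 and 19.5. Of the other class 3 genes, *Sema3g* (0.24) and *Sema3d* (0.11) were above 0 and *Sema3b* (-0.11) was below. At the probes used, these 3 lay within 2 scanner errors of 0. A second probe of *Sema3g* was well above background in *Sox21* KO alone, with 13.3 in wild-type and 36.0 in *Sox21* KO.

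Class 4 semaphorins are membrane proteins, and 5 of the 6 had log2 ratios above 0, with a median of 0.28. *Sema4d*, a ligand of B-type plexins that is also made by lymphocytes and osteoclasts, had 1297 ± 130 in wild-type and 2139 ± 214 in *Sox21* KO, 1.60-fold higher with a log2 ratio of 0.68. It kept at least 1.5-fold in all 12 alternatives to the processing, where its log2 ratio lay between 0.65 and 0.78. *Sema4f* had a log2 ratio of 0.79, with dim signals of 42.3 ± 7.19 and 75.4 ± 9.27, and its second probe, with 5.95 and 5.45, was at background on both arrays. *Sema4b* ran the other way, with 1928 ± 193 and 1462 ± 146, a log2 ratio of -0.44. *Sema4a* had a log2 ratio of 0.31 and *Sema4g* of 0.06.

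Classes 5 to 7 varied less, apart from *Sema6b*. This ligand of A-type plexins had 86.7 in wild-type and 142 in *Sox21* KO, 1.59-fold higher with a log2 ratio of 0.67 and a scanner error of 0.23. The related *Sema6a*, *Sema6c* and *Sema6d* lay between 0.02 and 0.07. *Sema5a* had 6129 and 6299.7, a log2 ratio of -0.00. *Sema7a*, a membrane-anchored ligand of *Plxnc1* and of integrins, had 939 and 1225, a log2 ratio of 0.34. *Sema5b* was well above background in *Sox21* KO alone, with 24.0 ± 6.35 in wild-type and 28.2 ± 6.09 in *Sox21* KO. Its normalized signal was 1.14-fold higher there, and the scanner errors of both values overlapped.

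Plexins, the signalling receptors of semaphorins, were all measured. Of the 9, 6 were above 0 and 3 below, with a median of 0.14. *Plxna4*, which transmits class 3 and class 6 signals and is abundant in sensory neurons, had 5995 ± 599 in wild-type and 3756 ± 376 in *Sox21* KO, 1.64-fold lower with a log2 ratio of -0.72. At its second probe the signals were dim, 46.3 and 41.7, and the log2 ratio was -0.19. Both probes had lower values in *Sox21* KO, and their mean of -0.46 did not pass 1.5-fold.

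*Plxnc1*, the receptor of *Sema7a*, had 774 ± 77.6 and 1164 ± 117, a log2 ratio of 0.55, just short of 1.5-fold. Its second probe had 270.2 ± 27.4 and 298 ± 30.1, a log2 ratio of 0.10. The probes thus differed by 0.45, more than either scanner error. The sequence of the second probe is shown because it gave the smaller value (mm9, minus strand, chr10:94257387-94257446, with no letters marked):
*Plxnc1* second probe: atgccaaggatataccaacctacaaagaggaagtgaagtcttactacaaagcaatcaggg

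The other plexins stayed within 2 scanner errors of 0. *Plxnd1*, known from endothelium, had 8076 and 9304, a log2 ratio of 0.16. *Plxnb2* had 7406 and 8783, a log2 ratio of 0.20. *Plxna2* had the next value below that of *Plxnc1*, 0.37. The lower side held *Plxnb3* at -0.34, with signals of 33.0 and 26.8 close to the lowest marked as well above background, and *Plxnb1* at -0.03. The neuropilins, which hold class 3 semaphorins at the cell surface, had log2 ratios of 0.05 each. *Nrp2* had 6809 and 7271 at the brightest probe and a log2 ratio of 0.12 at another, and *Nrp1* had 72.9 and 77.9.

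A few ligands can be set beside a known receptor. Beside the -0.76 of *Sema3e* stood 0.16 for its receptor *Plxnd1*. Beside the 0.68 of *Sema4d* stood -0.03 for *Plxnb1*, its high-affinity receptor. For *Sema3f* and *Nrp2* the values were 0.59 and 0.05, and for *Sema7a* and *Plxnc1* they were 0.34 and 0.55. For *Sema6b*, a ligand of A-type plexins, the value was 0.67. Beside it stood 0.37 for *Plxna2*, 0.14 for *Plxna1*, 0.05 for *Plxna3* and -0.72 for *Plxna4*.

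**Figure D3:**
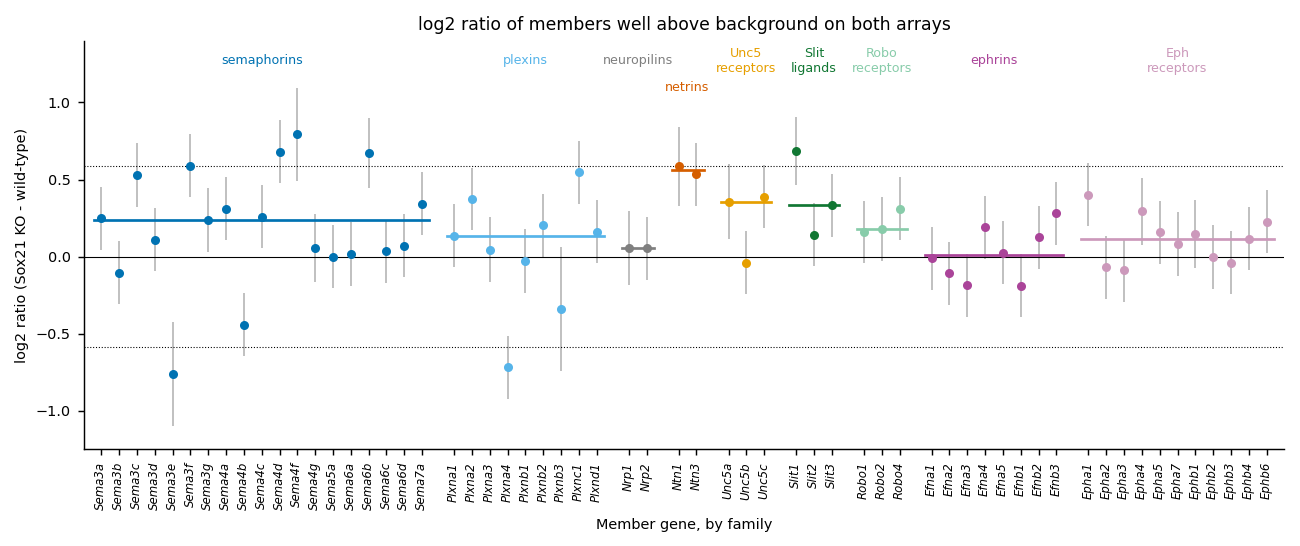
The log2 ratio (vertical axis, *Sox21* KO minus wild-type) of the measured guidance genes by family, with grey bars of 1 scanner error and a coloured line at each family's median. Dotted lines mark 1.5-fold. The points past the upper dotted line are *Sema3f*, *Sema4d*, *Sema4f*, *Sema6b*, *Slit1* and *Ntn1*, those past the lower are *Sema3e* and *Plxna4*, and no ephrin or Eph receptor lies past either.

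All 4 netrins on the array, laminin-related ligands, had higher signals in *Sox21* KO, and all but *Ntn3* were dim. *Ntn1*, which attracts axons through Dcc and repels them through Unc5 receptors, had 60.7 ± 8.33 in wild-type and 93.8 ± 10.6 in *Sox21* KO, a log2 ratio of 0.59. That value sat at the 1.5-fold limit, and its second probe did not stand well above background in wild-type, with 20.1 ± 4.93 and 27.1 ± 4.89. *Ntn3* had 276 ± 28.1 and 411 ± 41.4, a log2 ratio of 0.53.

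*Ntn4*, a netrin of basement membranes, had the clearest difference in detection of all guidance genes. Its signal was 14.0 ± 5.45 in wild-type, where 5 of 308 negative control spots were as bright or brighter, and 70.7 ± 8.47 in *Sox21* KO, where 0 were. The wild-type signal lay under 21.3, the lowest wild-type signal marked as well above background. Set against that value, the *Sox21* KO signal was 3.23-fold higher after scaling. That value is no strict limit, since *Sema5b* with 24.0 was not marked in wild-type, and the fold leaves out the scanner errors. *Ntn5* had 5.16 ± 5.17 in wild-type, where 150 of the negative controls were as bright or brighter, and 31.0 ± 5.70 in *Sox21* KO. Set against the same value, its *Sox21* KO signal was 1.41-fold higher. *Ntn4* and *Ntn5* have 1 probe each, so no second probe bears on either.

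Netrin probes are shown for the differences in detection, those of *Ntn4* and *Ntn5* and the dim second probe of *Ntn1*, in the coordinates and on the strand that the files give for mm9. The second probe of *Ntn1* lies on the minus strand at chr11:68040053-68040112, that of *Ntn4* on the plus strand at chr10:93208482-93208540 and that of *Ntn5* on the plus strand at chr7:52947753-52949386. The stretch given for *Ntn5* is longer than the 60 bases of the probe, so its letters come from separate pieces of the genome. No letters are marked.
*Ntn1* second probe: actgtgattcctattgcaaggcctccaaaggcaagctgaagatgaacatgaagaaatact
*Ntn4* probe: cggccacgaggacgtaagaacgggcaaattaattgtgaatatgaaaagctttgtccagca
*Ntn5* probe: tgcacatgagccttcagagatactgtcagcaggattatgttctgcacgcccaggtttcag

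The Unc5 receptors of netrins showed smaller differences than the netrins. *Unc5b*, which also serves vessels, had 12641 and 12662, a log2 ratio of -0.04. *Unc5c* had 279 and 375, a log2 ratio of 0.39, and its second probe gave 0.49. *Unc5a* had 63.5 and 83.6, a log2 ratio of 0.36. At the probes used both lay within 2 scanner errors of 0, which the second probe of *Unc5c* did not, and *Unc5d* was at background on both arrays.

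The 3 Slit ligands, large secreted repellents, were all above 0, with a median of 0.33. *Slit1* had 83.8 ± 9.46 in wild-type and 139 ± 14.5 in *Sox21* KO, 1.61-fold higher with a log2 ratio of 0.69. *Slit3* had 753 and 977, a log2 ratio of 0.33, and *Slit2* had 538 and 611, a log2 ratio of 0.14. Neither of these passed 2 scanner errors. The Robo receptors were also above 0 where measured, with 2022 and 2584 for *Robo4*, a receptor of endothelium (0.31), 367 and 428 for *Robo2* (0.18) and 2176 and 2502 for *Robo1* (0.16). *Robo3* was at background on both.

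No ephrin or Eph receptor measured on both arrays, proteins that signal between touching cells in both directions, passed 1.5-fold. Of the 8 ephrins, 4 were above 0 and 4 below, with a median of 0.01 and a range from -0.19 to 0.28. Those with an A in their name are anchored by a lipid and those with a B cross the membrane. *Efnb1* had 6703 and 6058, a log2 ratio of -0.19, *Efna5* had 3408 and 3573 (0.03), and *Efna1* had 2521 and 2575 (-0.01). *Efnb3* was the highest, with 694 and 869 and a log2 ratio of 0.28. For *Efnb2* the probes gave 0.13 and -0.13.

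Of the 14 Eph receptors, 11 were measured, 7 above 0 and 4 below, with a median of 0.12. The lowest was *Epha3* at -0.09 and the highest *Epha1* at 0.40, with 748 and 1016. *Epha2* had 2440.0 and 2394, a log2 ratio of -0.07. *Epha8* was well above background in *Sox21* KO alone, with 36.0 ± 6.38. In wild-type it had 12.5 ± 5.84, where 6 negative controls were as bright or brighter. Set against the lowest wild-type signal marked as well above background, its *Sox21* KO signal was 1.64-fold higher. *Epha6* and *Epha10* were not well above background on either array. Together, *Ntn4*, *Ntn5*, *Epha8* and *Sema5b* make 5.71% of the guidance genes above background in *Sox21* KO alone, against 2.13% of all genes. In wild-type alone there were 0, against 1.3% of all genes.

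The brightest probe of 4 guidance genes holds a run of at least 20 alternating T and G, a repeat that is common in the genome. These are *Sema4c*, *Ephb3*, *Epha5* and *Sema6d*. Of the 76 probes of the array with such a run, or with its A and C complement, 76 were well above background on both arrays, with a median signal of 8498 in wild-type. Of the 55603 other probes, 48.4% were well above background in wild-type, with a median signal of 22.1. *Sema4c* had 10109.8 and 12458 (log2 ratio 0.26) and *Ephb3* had 8780.3 and 8791 (-0.04), each at its only probe. *Epha5* had 3146 and 3609 (0.16) at the repeat probe and 6.51 and 4.94 at its other probe, not above background on either array. *Sema6d* had 805 and 869 (0.07) at the repeat probe and 56.7 and 41.0 at its other probe, a log2 ratio of -0.51. How much of these signals came from other transcripts with the repeat was not tested. Without such probes, 58 guidance genes were measured and the genes past 1.5-fold were the same 8.

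Of the guidance genes, 19 have several probes, and for 12 of these several were measured, giving 13 pairs of the probe used and another. The sign was the same in 10 of the 13, with a median absolute difference of 0.26 and a largest of 0.58, for *Sema6d*. Of the 8 genes past 1.5-fold, only *Plxna4* had a second measured probe.

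**Figure D4:**
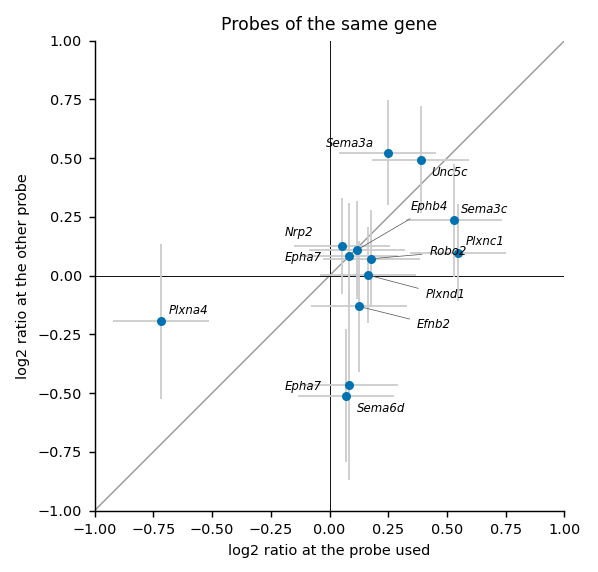
The log2 ratio at the probe used (horizontal axis) and at another measured probe of the same gene (vertical axis) for 13 pairs from 12 guidance genes, with grey bars of 1 scanner error and a grey line of equal values. Most pairs lie above 0 on both axes, *Plxna4* below 0 on both, and *Sema6d*, *Efnb2* and a probe of *Epha7* below the horizontal 0 line with a positive value at the probe used.

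Sox proteins bind DNA at short letters related to ACAATG and ACAAAG. Promoters of RefSeq (GRCm38.p6, 250 bases before to 50 after the start of transcription) were found for 61 of the 70 guidance genes, 77 promoters in all, and both motifs were searched on both strands. ACAATG was in 10.4% of the promoters of guidance genes and in 12.6% of all 32851 promoters. ACAAAG was in 14.3% and 18.7%. Either was in 22.1% and 28.6%, so these letters were no more frequent near the starts of guidance genes than near those of other genes.

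Among the guidance genes past 1.5-fold or above background in *Sox21* KO alone, 3 promoters held a motif before the start, and these are shown with the motif in capitals, on the strand of the gene. *Ntn4* (chr10:93640799-93641048, plus strand) holds ACAATG that begins 153 bases before the start. *Sema4d* (chr13:51748811-51749060, minus strand) holds ACAATG on the other strand, beginning 205 bases before the start, and *Sema4f* (chr6:82939770-82940019, minus strand) holds ACAAAG on the other strand, in the last 6 bases. A match is only a match of letters, and no binding was measured on these arrays.
*Ntn4* promoter: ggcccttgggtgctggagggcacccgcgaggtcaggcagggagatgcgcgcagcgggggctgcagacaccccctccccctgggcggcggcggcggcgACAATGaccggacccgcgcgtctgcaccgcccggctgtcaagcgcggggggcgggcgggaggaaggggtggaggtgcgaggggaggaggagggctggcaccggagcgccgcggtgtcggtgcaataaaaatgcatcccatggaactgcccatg
*Sema4d* promoter: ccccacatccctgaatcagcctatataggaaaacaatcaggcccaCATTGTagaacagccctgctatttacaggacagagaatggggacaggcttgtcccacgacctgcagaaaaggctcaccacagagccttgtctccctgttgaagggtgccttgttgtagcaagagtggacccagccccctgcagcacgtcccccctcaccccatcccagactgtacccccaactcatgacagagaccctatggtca
*Sema4f* promoter: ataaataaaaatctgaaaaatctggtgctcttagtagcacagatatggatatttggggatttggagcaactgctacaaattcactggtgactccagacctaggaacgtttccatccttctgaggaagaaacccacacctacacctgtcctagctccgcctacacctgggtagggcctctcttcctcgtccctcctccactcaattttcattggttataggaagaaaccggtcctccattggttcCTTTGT

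Genes that act with these ligands and receptors were followed in 3 further lists of 79 genes, of which 70 were measured, 41 above 0 and 29 below, with a median log2 ratio of 0.06. That is 58.6% above 0, against 52.4% of all genes. At least 1.5-fold higher were 3 of the 70, and 4 were at least 1.5-fold lower, against 3.20% and 3.0% of all genes. Co-receptors and adhesion molecules had a median of 0.06 over 17 measured genes. *Dcc*, the receptor through which netrins attract, had 6060.0 in wild-type and 4270.0 in *Sox21* KO, a log2 ratio of -0.55, beside the 0.59 of *Ntn1*. *Ptk7*, a receptor-like protein of Wnt signalling, had 3557 and 3604, a log2 ratio of -0.02. *Flrt2*, an adhesion protein that binds Unc5 receptors, had 279 and 607, a log2 ratio of 1.08. *Nfasc*, an adhesion protein of axons, had 942 and 248, a log2 ratio of -1.97, and the related *Nrcam* had 50.4 and 33.5, a log2 ratio of -0.63. *Nfasc* is among the genes that the study listed from these arrays, so its value is not independent of that choice.

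The intracellular effectors had a median of 0.05 over 40 measured genes. *Crmp1*, which relays semaphorin signals to microtubules, had 227 in wild-type and 68.8 in *Sox21* KO, a log2 ratio of -1.76. *Srgap1*, which acts below Robo receptors, had 239.9 and 105, a log2 ratio of -1.24, although no measured Robo or Slit gene was below 0. *Vav3*, an exchange factor below Eph receptors, and *Rnd1*, which binds plexins, were higher at 0.63 and 0.59. The general actin regulators *Cfl1* and *Cdc42* had 0.10 and 0.04. Neurotrophins, the GDNF family and their receptors lay between -0.24 and 0.20 for all 13 measured genes, with *Nrtn* at 0.20 and *Gfra2* at 0.01.

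Markers of several cell types differed between the arrays as well. Of 13 genes of neurons and axons, 8 were measured, 2 above 0 and 6 below, with a median log2 ratio of -0.34 and a summed normalized signal of 71.1 in wild-type and 52.6 in *Sox21* KO. *Tubb3* had -0.57, *Snap25* -0.44 and *Nefl* -1.21, *Stmn2* and *Elavl4* had 0.12 and 0.27, and *Nefm*, *Nefh* and *Scn9a* were not above background on either array. *Elavl3* was well above background in wild-type alone, with 28.2 and 13.3, and *Prph* in *Sox21* KO alone, with 22.3 and 29.7. Skeletal muscle genes had a median of -0.59 over 8 measured of 9, 1 above 0 and 7 below, with sums of 92.2 and 64.8, although muscle is no part of a tooth. *Tnnc2*, *Tnni2*, *Acta1*, *Tnnt3* and *Ckm* were at least 1.5-fold lower, between -0.71 and -0.59, whereas the embryonic myosin *Myh3* was higher at 0.64. The part of both cell types in the result was not tested.

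Cartilage and dental mesenchyme had medians above 0. Of 7 cartilage genes, 6 were measured, 5 above 0 and 1 below, with a median of 0.34 and sums of 14.5 and 22.5. *Comp* had 0.89, *Col2a1* 0.74 and *Sox9* 0.15. Of 10 genes of dental mesenchyme and odontoblasts, 9 were measured, 7 above 0 and 2 below, with a median of 0.20 and sums of 231 and 258. The odontoblast and osteocyte genes *Dmp1* and *Phex* had 0.93 and 0.79, whereas *Dspp* had -0.01 and *Vim* 0.29. Bone genes had a median of 0.11 over 9 of 9, 7 above 0 and 2 below, with sums of 1326 and 1563, and *Spp1* had 0.82, *Col1a2* 0.26 and *Col1a1* 0.11.

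Endothelial genes, among which *Robo4* and *Plxnd1* are known to be active, had a median of 0.08 over 10 of 10, 6 above 0 and 4 below, with sums of 111 and 107.04. *Pecam1* and *Tek* had 0.62 and 0.64, *Kdr* had -0.02 and *Egfl7* -0.19, and the others lay between -0.29 and 0.46. Leukocyte genes had a median of 0.33 over 5 of the 8 on the array, 3 above 0 and 2 below, with sums of 87.8 and 81.8, and *Itgam* had -0.46 and *Csf1r* 0.33. The other 3, *Ptprc*, *Lyz2* and *Fcgr3*, were well above background in *Sox21* KO alone. Schwann cell genes had a median of 0.02 over 5 of 9, 3 above 0 and 2 below, with sums of 12.1 and 12.2, and *Mbp* had 0.02 and *S100b* 0.03.

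Dental epithelial genes had a median of -0.01 over 10 of 10, 5 above 0 and 5 below, with sums of 3613 and 3424. The enamel genes *Enam* and *Mmp20* were at least 1.5-fold lower, at -0.65 and -0.62, whereas *Amelx* had 0.08 and *Ambn* -0.23. All 4 were well above background on both arrays, as the tissue label has it. By qPCR, the study reported *Mmp20* and the amelogenin gene as unchanged in *Sox21* KO, without showing those data. The part of these cell types in the guidance genes was not tested.

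**Figure D5:**
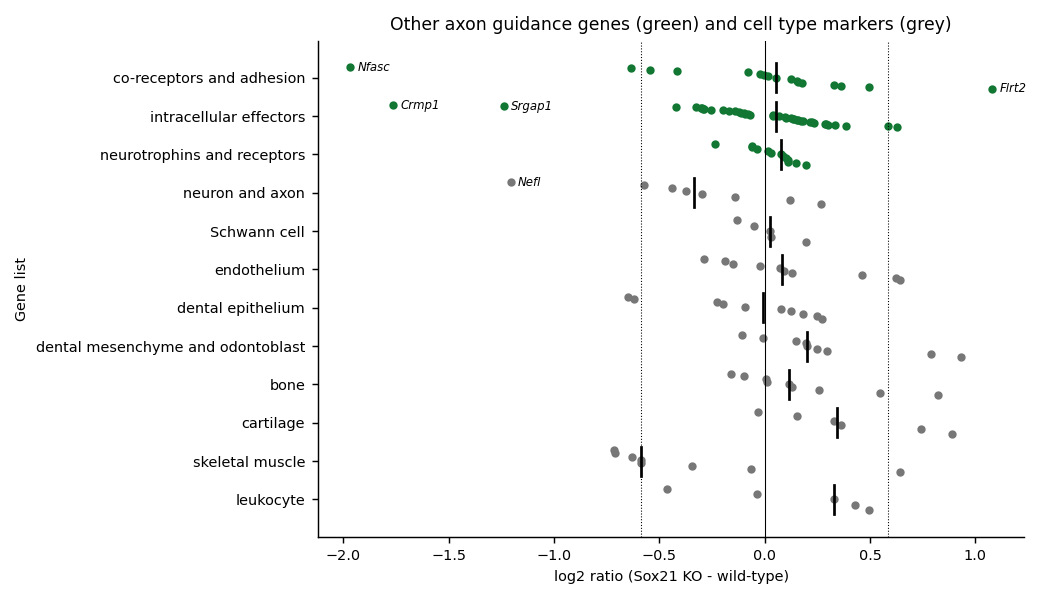
The log2 ratio (horizontal axis, *Sox21* KO minus wild-type) of measured genes in 3 lists of other axon guidance genes (green) and 9 lists of cell type markers (grey), 1 point per gene, with a black line at each list's median and dotted lines at 1.5-fold. *Nfasc*, *Crmp1*, *Srgap1* and *Nefl* lie far to the left and *Flrt2* to the right, and the medians of neuron and muscle markers are below 0.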

How the data were processed

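Incisor RNA of 1 wild-type and 1 *Sox21* KO sample was labelled with Cy3 and hybridized to Agilent SurePrint G3 arrays. The authors deposited processed signal intensities from Agilent Feature Extraction 10.7.3.1 and a second table of linear ratios, the same intensities over 1 number per array (268 and 276). Here, log2 of the processed signal over the 75th percentile of all 62976 spots was averaged over the spots of a probe, after 267 outlier spots were left out. Genes were tied to RefSeq (GRCm38.p6) by accession (19670), symbol (1356) or older symbol (259), and 15120 names were not matched. Probe coordinates are mm9, for which no annotation was used here, so exon or untranslated region is not given.

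For a guidance gene well above background on 1 array alone, a fold was given. In it, the dim signal was raised to the smallest normalized signal that its array marked as well above background, unless it was already larger. This fold is no strict lower bound, since brighter signals could go unmarked and scanner errors were not counted. Every guidance gene could be named. Described in full were those past 1.5-fold, those on 1 array alone and, in each family, the 3 of highest wild-type signal. From other lists came those past 1.5-fold and the 2 brightest. *Stmn2*, *Elavl4*, the neuron markers at background and the neuron and leukocyte genes on 1 array were named after their values were seen. The genes and lists were chosen with earlier results of these data known. The steps were tested on simulated data, with larger changes than those described here and noise below the scanner error. That test used the 2-fold limit, so it does not bear on the 1.5-fold counts. Alternatives covered scaling, background correction with limma 3.58.1 (normexp, offset 50), background requirement, probe choice and outliers. Python 3.11.15, numpy 2.4.6, pandas 2.3.3 and R 4.3.3 were used.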

Additional observations from a re-analysis of the deposited data

How the results depend on the processing

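No paired analysis was possible because each genotype has 1 array, and for the same reason no sample could be left out. Of 12 alternatives, 2 were chosen after seeing the data, namely leaving out spots with a marked local background and leaving out probes with a TG repeat. Of the 61 measured guidance genes, 46 kept their direction in every alternative where they had a value, 38 higher and 8 lower. Without TG repeat probes 58 had a value, and without spots of marked background 60. Of 728 single values, 80 moved by more than the SD between repeat spots. The median over guidance genes exceeded that over all genes by 0.12 to 0.20 in each alternative. Scaling by the median, leaving controls out of the 75th percentile and using the deposited linear ratios shift all ratios alike. There the distance of 0.13 could not change. Scaling by the median raised every ratio, to medians of 0.24 over guidance genes with 8 below 0, 0.33 for semaphorins, 0.23 for plexins, 0.15 for neuropilins, 0.66 for netrins, 0.45 for Unc5 receptors, 0.43 for Slit ligands, 0.27 for Robo receptors, 0.10 for ephrins, 0.21 for Eph receptors and 0.16 for other axon guidance genes. With normexp, whose offset shrinks ratios of dim probes, 1 gene was at least 1.5-fold higher (*Sema4d*) and 1 lower (*Plxna4*), against 1.25% and 1.54% of all genes, and the medians were 0.38 for netrins and 0.18 for Unc5 receptors. Without the background requirement, 3 genes were at least 2-fold higher (*Epha8*, *Ntn4* and *Ntn5*). At least 1.5-fold higher there were 9 of 70 guidance genes, against 6.14% of all genes. Medians there were 1.44 for netrins and -0.039 for Unc5 receptors, the latter over 5 genes that include *Unc5cl* at -0.22. With a positive and significant signal as the requirement, 2 genes were at least 2-fold higher. At 1.5-fold, 8 of 64 were higher there, against 5.72% of all genes. The 2-fold share of all genes was not counted in either setting. With the mean over measured probes, 1 gene was at least 1.5-fold lower (*Sema3e*), against 2.77% of all genes. With controls left out of the 75th percentile, 4 were at least 1.5-fold higher, against 2.95% of all genes. The count fell because *Ntn1* and *Sema3f* lay at the limit. Genes with signals near background, such as *Sema4f*, *Sema3e* and *Ntn1*, have the least certain ratios.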

Other observations

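Of the 2 genes that are not netrin receptors, only *Unc50* was set apart from the families. *Unc5cl* was counted with the Unc5 receptors. *Unc50*, a protein of the Golgi, had signals of 2384 in wild-type and 2679 in *Sox21* KO, a log2 ratio of 0.13. *Unc5cl* stayed within background on both arrays, with 5.90 and 5.22. Without these 2 genes, 60 guidance genes were measured, 44 above 0 and 16 below, with a median log2 ratio of 0.15. The longest run of letters shared by probes of different guidance genes was 23 bases, between *Ephb3* and *Sema4c*, within the TG repeat of both.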
